A study of Mesocricetus auratus with 21 samples.

Results

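The loss of Mov10l1 was examined in the newborn testis of the golden hamster, in the 4 RNA-seq libraries taken on the day of birth (0 days postpartum, 0 dpp) out of 21 testis libraries in the series. The members were chosen by age and genotype alone. There were 2 libraries of wild-type (Mov10l1+/+) and 2 libraries of homozygous mutant (Mov10l1-/-) males, each from whole testes of 1 animal with its own code. The knockout deletes exon 20 of Mov10l1 on an allele made by CRISPR-Cas9 in 1 founder female, and its carriers were bred to outbred wild-type hamsters before heterozygotes were mated with each other. Every cell of the mutant carries the deletion, and no transgene or Cre driver is involved. The 2 mutant animals share the first part of their animal code, called the litter code here although its meaning is not stated, whereas the wild-type animals carry 2 other litter codes. At birth, genotype and litter code cannot be told apart. The comparison asks which testis transcripts differ before the first wave of spermatogenesis begins, and libraries of 9 dpp and of adults, which come from other animals, were used to show where the newborn testis differs.

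MOV10L1 is an RNA helicase that binds the single-stranded precursors of PIWI-interacting RNAs (piRNAs) and is needed to process them. piRNAs are loaded into PIWI proteins and guide them to transposon transcripts, and in the fetal germ line they also direct DNA methylation to transposon copies. In the newborn rodent testis the germ cells are gonocytes, which lie within cords of Sertoli cells, while Leydig cells make steroids outside the cords and meiosis has not begun.

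The mutation was made with guides against 4 target sites that flank exon 20. The target sequences are shown because they define the allele that all Mov10l1-/- libraries carry. They are given 5′ to 3′ as the submitters listed them, and capitals mark the last 3 bases, which hold the letters NGG of the motif that Cas9 reads beside its target. Their genome positions were not determined here, and each is placed by its intron only.
Intron 19, first target: gggtatcacatgacttgGGG
Intron 19, second target: ggtgttgggatcatagtgGGG
Intron 20, first target: tctccactcttccatgtgGGG
Intron 20, second target: taccattacatttgtcagGGG

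Wild-type replicate 2 held 20210612 counts, and the other 3 libraries held 44587268 to 48518947 counts. The first principal component took 67.8% of the variance and separated the genotypes, with wild-type replicate 2 at -34.7, wild-type replicate 1 at -13.9 and the mutant libraries at 24.1 and 24.5. The shallowest library thus stood farthest from the mutants. It differed by more than 2-fold from the mutant libraries in 842 and 808 genes, against 344 and 352 genes for wild-type replicate 1, 105 genes between the wild types and 139 between the mutants. The labelled tissue was checked against its markers. Ddx4, an RNA helicase of germ cells, lay between 110 and 155 CPM (counts scaled to the TMM-normalized library size) in the 4 libraries. Clu, a secreted protein abundant in Sertoli cells, lay between 1279 and 2487 CPM.

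Mov10l1 itself (ENSMAUG00000003667, MesAur1.0 scaffold KB708136.1:11073749-11134091, plus strand) was far lower in both mutant libraries. The wild types stood at 126 and 73.3 CPM and the mutants at 15.7 and 15.0 CPM. Both mutant values lay below both wild-type values, and the wild types differed more from each other than the mutants did. The log2 fold change was -2.70 ± 0.21 (SE), a 6.51-fold lower level, with an adjusted p of 5.4e-05 (edgeR's quasi-likelihood test, Benjamini-Hochberg adjustment over all genes tested, as for every adjusted p at birth). The mutants therefore kept 664 and 731 counts of the gene, a residue that a count over whole genes cannot place relative to exon 20. At 9 dpp the mutants kept 1.46 and 1.49 CPM, where the wild-type replicates 1 and 2 had 34.4 and 37.3 CPM.

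At an adjusted p below 0.01, 164 of 16333 genes tested were higher in Mov10l1-/- testes (1.0%) and 152 were lower (0.931%). The genes called lower had a larger median change, 2.90-fold against 2.17-fold for the genes called higher, and lay at lower levels. The larger of the genotype means had a median of 13.2 CPM for the genes called lower and 25.3 CPM for those called higher. Of the genes called higher, 25 changed by more than 4-fold, and of those called lower 48 did. The largest changes sat among weakly expressed genes. The 40 genes called higher whose level reached 1 to 10 CPM in one genotype had a median log2 change of 2.08, and the 25 above 100 CPM a median of 0.82. In the same classes the 64 and 16 genes called lower had median sizes of 2.19 and 0.71, so sizes were close at like levels. All 316 called genes had both mutant libraries on the same side of both wild-type libraries, which 53.0% of all genes tested also had. Wild-type replicate 1 lay nearer to the mutant mean than wild-type replicate 2 did in 149 of the 164 genes called higher and in 125 of the 152 called lower. Without wild-type replicate 2 the counts fell to 79 higher and 81 lower, of which 69 and 69 were shared with the calls from all 4 libraries. With any other library left out they were 365 to 416 higher and 253 to 423 lower. Only the animal codes tell how these animals relate, so p values measure the spread between these animals and libraries. Both mutants share a litter code, so the p values hold no spread between litter codes of mutants. In whole testes, fewer cells of a type and less RNA per cell cannot be told apart.

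**Figure D1:**
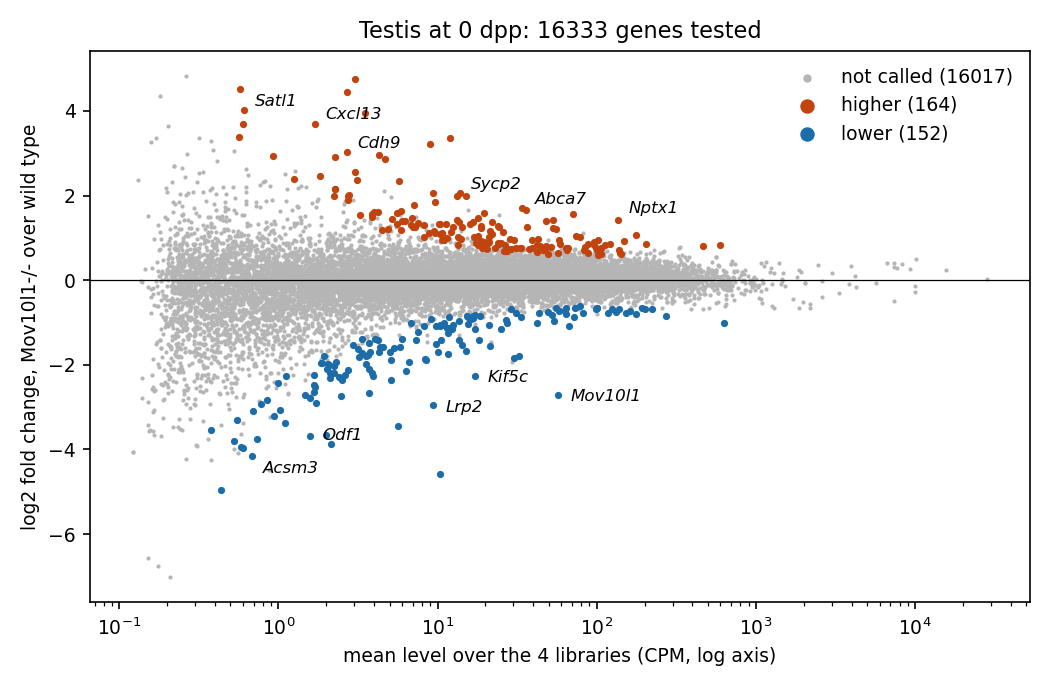
Each point is 1 of the 16333 genes tested at 0 dpp, with its mean level over the 4 libraries (CPM, log axis) against the log2 fold change of Mov10l1-/- over wild type. The called genes, 164 above and 152 below 0, lie at the edges of the cloud. Of the 28 that changed by more than 8-fold, 26 had a mean level under 10 CPM, and Mov10l1 is set apart at -2.70.

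A symbol or description was in hand for 174 of the 316 called genes. Names come mostly from supplementary lists of changed genes, so a gene that changed is more likely to have one. The 22 named genes described next are among the 24 with the largest changes, 12 in each direction. All 24 were also called by DESeq2.

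Among the genes called higher were some with very low levels in the wild types. An olfactory receptor 10Q1-like gene, a member of the odorant receptor family, was at 0.204 and 0.292 CPM in the wild types and at 5.74 and 4.52 CPM in the mutants. It was 21.7-fold higher, with a log2 fold change of 4.44 ± 0.37 (SE, adjusted p = 8.36e-05). Satl1, which resembles the acetyltransferases that act on spermidine and spermine, had 5 and 0 counts in the wild types and 51 and 55 in the mutants. A count of 0 allows up to 0.146 CPM in wild-type replicate 2, and both mutants were above it at 1.09 and 1.24 CPM. Cxcl13, a chemokine that attracts B cells, was at 0.347 and 0.0487 CPM in the wild types and at 3.62 and 2.78 CPM in the mutants. Cdh9, a cadherin that holds cells together at synapses, was 8.17-fold higher, from 0.713 and 0.390 CPM to 5.31 and 4.40 CPM. These 4 genes were under 1 CPM in both wild types at birth. In adult testes Satl1 was at 27.0 and 34.7 CPM in the wild types and at 0.0282 and 0 CPM in the mutants. Cxcl13 and Cdh9 were also expressed in adult wild types and lower in the mutants (log2 fold changes -3.61 and -2.98). The olfactory receptor gene was at 0 CPM in both adult wild types. The study found few germ cells in adult mutant testes.

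Others in this group were already expressed in wild-type testes. Sycp2, a structural protein of the synaptonemal complex that holds paired chromosomes in meiosis, was at 6.28 and 4.33 CPM in the wild types and at 23.0 and 21.9 CPM in the mutants, 4.14-fold higher (log2 fold change 2.05 ± 0.18 (SE), adjusted p = 0.000146). Tcl1a, a cofactor of the kinase AKT, was at 2.49 and 1.12 CPM against 11.9 and 7.45 CPM. C1ql1, a secreted protein related to complement C1q that acts at synapses, was at 4.59 and 2.39 CPM against 16.5 and 13.8 CPM. In each of the 3 the replicates of a genotype differed less than the genotypes did. Also in this group were Gm15262 (log2 fold change 2.86), Abca16, an ATP-binding cassette transporter (2.56), the orphan receptor Gpr61 (2.36) and Fam26f (2.02), all without overlap of the genotypes.

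The genes called lower with the largest changes were likewise weakly expressed, with an exception. Lrp2, the endocytic receptor megalin, was at 20.3 and 12.9 CPM in the wild types and at 1.95 and 2.35 CPM in the mutants. It was 7.78-fold lower, with a log2 fold change of -2.96 ± 0.24 (SE, adjusted p = 7.98e-05). Odf1, a protein of the outer dense fibres of the sperm tail, was at 1.69 and 4.19 CPM against 0.214 and 0.226 CPM. The wild types of Odf1 differed by more than the mutants did, and both were above both mutants.

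Enzymes and plasma proteins made in the liver stood at the head of the group. Acsm3, an acyl-CoA synthetase for medium-chain fatty acids, had 32 and 40 counts in the wild types and 4 and 2 in the mutants, a log2 fold change of -4.16 ± 0.73 (SE). Plg, the plasma protease precursor plasminogen, was at 0.693 and 1.56 CPM against 0.0857 and 0.0452 CPM. Levels in the mutants were thus a few counts, and the size of the fold is loosely fixed. Both genes and CUNH2orf54 (-3.95) lost their call without wild-type replicate 2, with adjusted p of 0.0384, 0.0299 and 0.0156 by edgeR.

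Several of these genes act in muscle or nerve. Pax7, the paired-box factor of muscle satellite cells, was at 1.24 and 1.51 CPM in the wild types and at 0.150 and 0.203 CPM in the mutants. Clcn1, the chloride channel of skeletal muscle, was at 1.37 and 2.29 CPM against 0.171 and 0.248 CPM. In both genes the wild types lay above 1 CPM and the mutants below 0.3 CPM. The group also held Skor2, a corepressor of the nervous system (-3.22), Gabra5, a subunit of the GABA-A receptor (-3.09), the adhesion molecule Dscaml1 (-2.90) and the secreted ribonuclease Rnase1 (-3.38). Without wild-type replicate 2, Skor2, Gabra5, Clcn1 and Pax7 were no longer called, at adjusted p of 0.0193, 0.0102, 0.0129 and 0.0129 by edgeR.

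**Figure D2:**
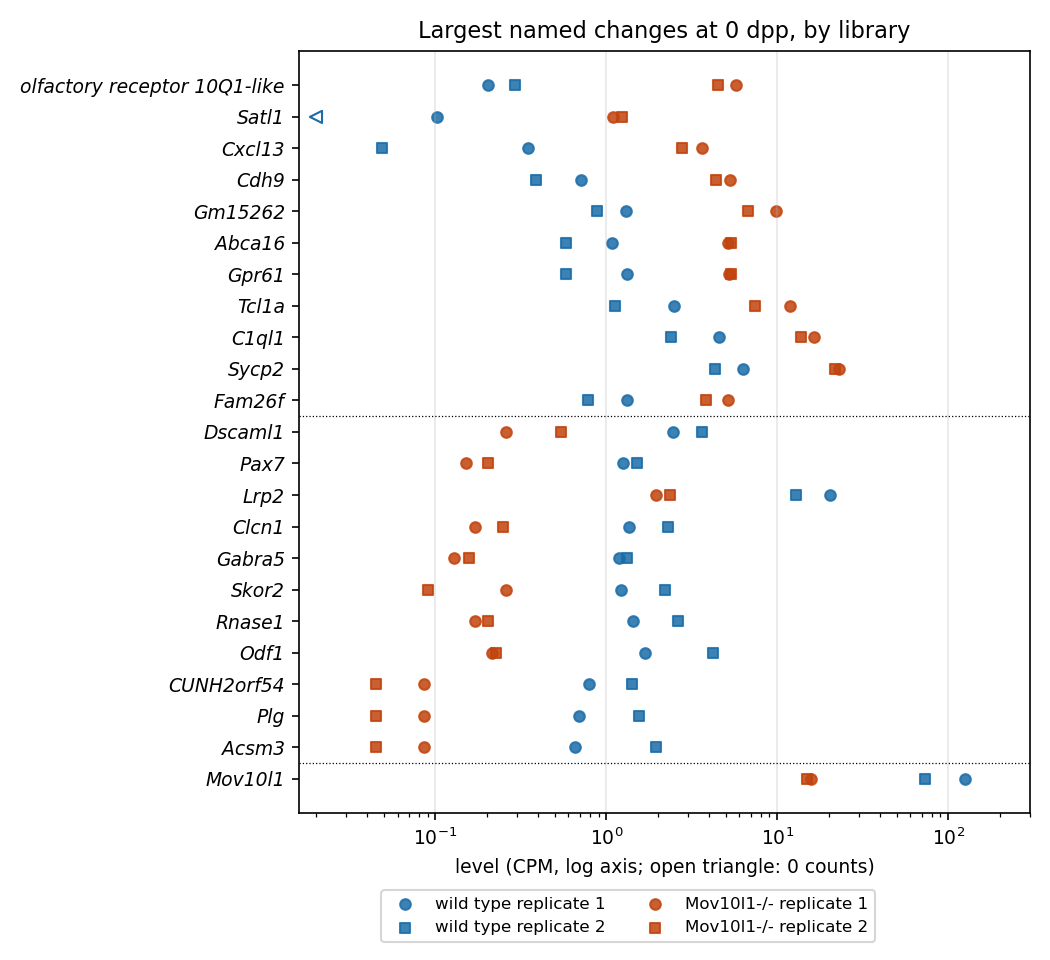
Levels (CPM, log axis) of 22 of the largest named changes, 11 in each direction, and of Mov10l1 in each of the 4 libraries at 0 dpp. Wild-type points (blue) and Mov10l1-/- points (orange) do not overlap in any row, Satl1 had 0 counts in wild-type replicate 2 (open triangle), and Lrp2 and Mov10l1 are the only rows of the lower group whose wild types exceed 10 CPM.

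Some of the largest changes have no name in hand. ENSMAUG00000019989 was at 0.245 and 0.146 CPM in the wild types and at 5.83 and 5.83 CPM in the mutants, and its log2 fold change was 4.76. ENSMAUG00000014035 was at 18.4 and 21.6 CPM against 0.964 and 0.700 CPM (log2 fold change -4.57 ± 0.22 (SE), adjusted p = 1.75e-06 by edgeR). Both were singled out after their values were seen. In wild types the second of them was expressed at about the level of Lrp2.

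Gene lists were then read for the pathways and cell types of the testis. They were compiled with the study's tables of changed genes in view, and only listed genes with an identifier in those tables could be tested, so the counts describe these members and are no independent evidence of a direction. Over all 20 lists, 34 of 225 tested genes were called higher and 29 lower. The lists hold many genes that changed at other ages, which is not true of the average gene. For comparison, 981 tested genes took their name from a list other than that of newborn testes, and 39 of them were called higher and 15 lower.

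Most tested genes of the piRNA pathway were not called at birth. Of 28 listed genes 21 were tested, and 1 was called higher (4.76%) and 2 lower (9.52%, Mov10l1 itself and Spocd1). Over all genes tested these shares were 1.0% and 0.931%. The median log2 fold change was 0.10, against 0.02 over all genes. Of the 21, 11 had an unadjusted p below 0.05, as did 3651 of the 16333 genes tested. Both mutants lay above both wild types in 6 of the 21 and below in 7, and in 4573 and 4089 of the 16333. DESeq2 called 2 higher and 3 lower. Spocd1, which links the nuclear PIWI protein to DNA methylation, fell from 205 and 197 CPM to 131 and 112 CPM (log2 fold change -0.73 ± 0.12 (SE), adjusted p = 0.0049), and was not called in the joint fit with 9 dpp (adjusted p = 0.0148 by edgeR). Btbd18, a nuclear factor for transcription of piRNA precursors, rose from 12.5 and 6.09 CPM to 29.3 and 24.0 CPM. Its call did not hold in DESeq2, where the adjusted p was 0.053. The PIWI proteins were not called. Piwil4, the nuclear PIWI protein of the fetal germ line, was at 466 and 501 CPM in the wild types and at 338 and 262 CPM in the mutants, without overlap (log2 fold change -0.69 ± 0.14 (SE), adjusted p = 0.0132 by edgeR and 0.00021 by DESeq2). Piwil2, a cytoplasmic PIWI protein, was at 224 and 193 CPM against 170 and 127 CPM (adjusted p = 0.061). Piwil1, the PIWI protein of later spermatogenesis, overlapped between genotypes at 17.7 and 12.9 CPM against 20.4 and 15.9 CPM. The tudor-domain partners differed among themselves, as Tdrd5 and Rnf17 had log2 fold changes of 0.69 and 0.66 and Tdrd1 and Tdrd7 of -0.05 and -0.15, none of them called. The number called higher was 5 without wild-type replicate 1 or without Mov10l1-/- replicate 2, and the number called lower 4 without Mov10l1-/- replicate 1.

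Genes that mark germ cells had most of their calls on the higher side. Of 38 listed genes 32 were tested, 7 were called higher (21.9%) and 1 lower (3.1%), and the median log2 fold change was 0.42. Over all genes tested the called shares were 1.0% and 0.931%. In both mutants 17 lay above and 4 below both wild types, against 4573 above and 4089 below of all 16333 genes tested. Leaving out the member whose name comes from the newborn list gave 6 higher and 1 lower of 31. Dazl, an RNA-binding protein that germ cells need to become competent for meiosis, was at 85.5 and 77.4 CPM in the wild types and at 163 and 127 CPM in the mutants, 1.78-fold higher (log2 fold change 0.83 ± 0.13 (SE), adjusted p = 0.0049). Elavl2, an RNA-binding protein of the ELAV family, was at 35.5 and 27.3 CPM against 80.1 and 69.3 CPM. Both genes had mutant libraries well apart from the wild types. The kinase-like protein Tex14 of germ-cell bridges rose 1.95-fold, the ubiquitin ligase Trim71 1.94-fold, the RNA-binding protein Ybx2 2.22-fold and the growth factor receptor Fgfr3 2.68-fold.

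Other germ-cell genes were not called. Ddx4 was at 146 and 110 CPM in the wild types and at 155 and 120 CPM in the mutants, so its libraries overlapped (log2 fold change 0.10 ± 0.15 (SE), adjusted p = 0.769). Sohlh1, a transcription factor of early spermatogonia, was at 36.2 and 32.0 CPM against 44.5 and 32.7 CPM. Ddx25, a helicase of later germ cells, was at 76.8 and 56.6 CPM against 124 and 93.3 CPM and missed the threshold (adjusted p = 0.0257 by edgeR, 0.0046 by DESeq2). Uchl1, a deubiquitinating enzyme of gonocytes and spermatogonia, went the other way, from 25.3 and 38.0 CPM to 10.8 and 10.8 CPM, a 2.92-fold lower level. The list thus held members on both sides. The number of germ-cell genes called higher was 5 without wild-type replicate 2, which removed the calls of Dazl and Trim71 (adjusted p = 0.0161 for each by edgeR), and 11 without wild-type replicate 1 or Mov10l1-/- replicate 2.

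Transcripts of meiosis genes were present in the newborn testis, and most of those tested were not called. Of 33 listed genes 18 were tested, and 3 were called higher (16.7%) and 0 lower. Among all genes tested 1.0% were called higher and 0.931% lower. In both mutants 12 lay above both wild types against 1 below. Over all 16333 genes tested, 4573 lay above and 4089 below. The median log2 fold change was 0.72. By edgeR 14 of the 18 had an unadjusted p below 0.05, as did 3651 of the 16333 genes tested. Beside Sycp2, Spata22, a factor of meiotic recombination, rose from 3.20 and 2.53 CPM to 9.34 and 8.67 CPM (3.09-fold, adjusted p = 0.00202). Shoc1, needed for crossovers, rose from 24.2 and 16.9 CPM to 38.9 and 41.2 CPM, and lost its call without wild-type replicate 2 (adjusted p = 0.0287 by edgeR). Members close to the threshold were Sycp1 at 0.95 and Hormad1 at 1.30 on the log2 scale, with adjusted p of 0.0127 and 0.0115, and Brdt at -0.78 with 0.012. DESeq2 called 8 members higher and 1 lower. The count called higher ranged from 2 without wild-type replicate 2 to 9 without wild-type replicate 1.

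Genes named for spermatids split. Of 10 tested, 4 were called higher (40%) and 2 lower (20%), and none of these 6 calls was of a member named from another list. Among all genes tested 1.0% were called higher and 0.931% lower. The median log2 fold change of the list was 0.78. In both mutants 6 members lay above and 2 below both wild types, against 4573 and 4089 of all 16333 genes tested. Sox30, a transcription factor of the spermatid programme, rose from 16.5 and 11.3 CPM to 38.2 and 30.5 CPM. Satl1, described above, is also a member and was called higher. The sperm ion channel gene Kcnu1 and the sperm anion transporter gene Slc26a8 rose 1.93-fold and 2.23-fold, and both lost their call without wild-type replicate 2 (adjusted p = 0.0246 and 0.0119 by edgeR). The dynein gene Dnah3 fell from 1.88 and 3.21 CPM to 0.300 and 0.452 CPM, beside Odf1, and was not called without wild-type replicate 2 (adjusted p = 0.0114 by edgeR). All spermatid members that were called lower had mutant levels under 0.5 CPM.

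Sertoli cell genes that passed the test were all lower. Of 24 listed genes only 9 were tested, of which 4 were called lower (44.4%) and 0 higher, with a median log2 fold change of -0.69. Over all genes tested 0.931% were called lower. In both mutants 8 of the 9 lay below both wild types, as did 4089 of all 16333 genes tested. Among the 6 members named from another list, 2 were called lower and 0 higher. Inha, the alpha subunit of inhibin, which restrains the secretion of follicle-stimulating hormone, was at 132 and 168 CPM in the wild types and at 88.2 and 86.8 CPM in the mutants, 1.71-fold lower (log2 fold change -0.77 ± 0.13 (SE), adjusted p = 0.00555). Inhbb, the beta-B subunit, was at 236 and 263 CPM against 169.5 and 141 CPM. Sox8, a transcription factor of the Sertoli lineage, was at 20.3 and 23.7 CPM against 12.7 and 11.9 CPM. Ptgds, which makes prostaglandin D2, was at 61.3 and 72.9 CPM against 42.4 and 33.7 CPM. In these 4 genes no mutant library reached a wild-type one.

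The most abundant Sertoli gene of the list, Clu, was at 2106 and 2487 CPM in the wild types and at 1611 and 1279 CPM in the mutants, and was not called (adjusted p = 0.0284). Kitl, the ligand that Sertoli cells present to the KIT receptor of germ cells, was at 150.3 and 129.9 CPM against 121 and 119.6 CPM (adjusted p = 0.291). The summed level of the 9 genes was 2833 and 3294 CPM in the wild types and 2144 and 1748 CPM in the mutants, of which Clu made up most. The germ-cell list summed to 1380 and 1180 CPM in the wild types and to 1802 and 1462 CPM in the mutants. The part of the share of each cell type in these sums was not tested. None of the 4 Sertoli calls held without wild-type replicate 2, at adjusted p of 0.0265 for Ptgds, 0.0398 for Inha, 0.0473 for Sox8 and 0.0484 for Inhbb by edgeR, and DESeq2 called 7 of the 9 lower. The count was 7 without Mov10l1-/- replicate 1.

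Only 1 of 9 Leydig cell genes could be tested. CYP11A1, the enzyme that starts steroid synthesis from cholesterol, was at 50.2 and 47.1 CPM in the wild types and at 98.5 and 101 CPM in the mutants, 2.05-fold higher (log2 fold change 1.03 ± 0.11 (SE), adjusted p = 0.000622). The replicates of each genotype were close. It was called in all 11 other settings run, each left-out library included.

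**Figure D3:**
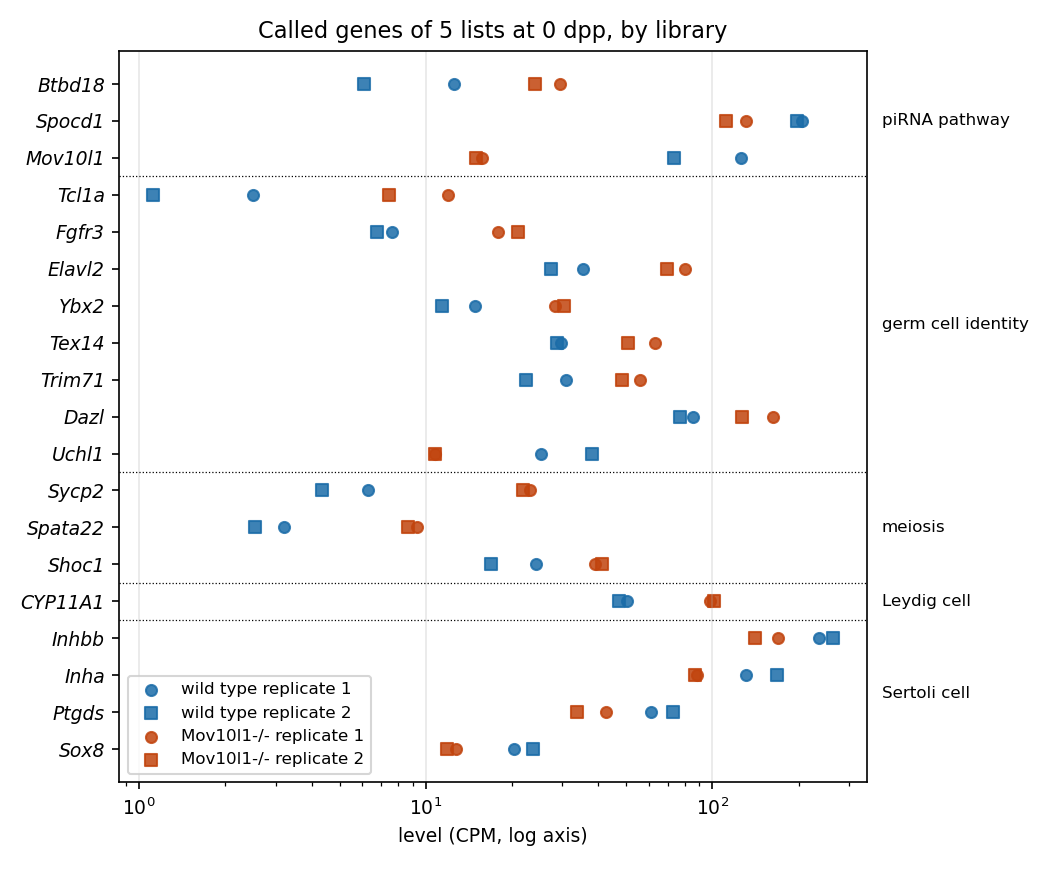
Levels (CPM, log axis) in each of the 4 libraries at 0 dpp of the called members of the piRNA pathway, germ cell, meiosis, Leydig and Sertoli lists. Both Mov10l1-/- points (orange) lie right of both wild-type points (blue) for the germ-cell and meiosis genes except Uchl1, and left of them for the 4 Sertoli genes.

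The list of synapse and ion channel genes held many calls, but most of its members were named from the newborn list alone. All 25 listed genes were tested, and 11 were called higher (44%) and 3 lower (12%), with a median log2 fold change of 0.28. Over all genes tested these shares were 1.0% and 0.931%. Among the 9 members named from another list, 4 were called higher and 0 lower. Nptx1, a secreted neuronal pentraxin, was the most abundant of them, at 91.3 and 55.4 CPM in the wild types and 217.5 and 179.6 CPM in the mutants (2.69-fold, adjusted p = 0.00209). The ryanodine receptor Ryr3, a calcium release channel, rose from 10.1 and 8.47 CPM to 20.6 and 27.8 CPM. Tagln3, a neuronal calponin-like protein, rose from 4.40 and 4.04 CPM to 10.9 and 10.7 CPM, and the proteoglycan Cspg5 2.59-fold. The glycine transporter Slc6a9 rose 2.20-fold, the bicarbonate transporter Slc4a10 2.90-fold, the kinase Brsk1 1.87-fold and the exchange factor Dock3 1.61-fold. Brinp2, a neural protein, fell 1.87-fold, beside Gabra5 and Dscaml1. The counts became 7 higher and 1 lower without wild-type replicate 2 and 12 higher and 8 lower without Mov10l1-/- replicate 1.

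The calls in the liver and skeletal muscle lists were all lower. Of 8 liver genes tested, 3 were called lower (37.5%) and 0 higher. Of 7 skeletal muscle genes 3 were called lower (42.9%) and 0 higher. Among all genes tested 0.931% were called lower and 1.0% higher. In both mutants 7 of the 8 liver genes and 6 of the 7 muscle genes lay below both wild types. So did 4089 of all 16333 genes tested. The calls in both lists were all of genes named from the newborn list, and the 2 members of each group named elsewhere included none. Apob, the protein of low-density lipoprotein, was the best expressed of the liver calls, at 21.4 and 18.8 CPM in the wild types and 11.0 and 11.1 CPM in the mutants (1.83-fold lower, adjusted p = 0.00591). Myh7, the slow myosin heavy chain, fell from 9.64 and 11.6 CPM to 4.33 and 3.64 CPM. The summed liver list was at 47.1 and 55.7 CPM against 30.0 and 28.1 CPM, and the summed muscle list at 36.9 and 45.1 CPM against 32.0 and 26.2 CPM. Without wild-type replicate 2, 1 liver gene and 1 muscle gene were called lower.

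Patterning factors, blood and endothelial genes were read in the same way. Among all genes tested 1.0% were called higher and 0.931% lower. None of the calls in the patterning and blood lists was of a member named from another list. The median log2 fold change was -0.65 over the patterning factors tested and 0.59 over the 5 of them named from another list. In both mutants 7 of 13 homeobox and patterning factors lay below both wild types and 3 above. The same held for 4089 and 4573 of all 16333 genes tested. Of the 13, 5 were called lower (38.5%) and 0 higher, among them Mycn, from 88.1 and 91.5 CPM to 59.96 and 54.5 CPM. Without wild-type replicate 2 only 2 of them were called. Of 11 blood and immune genes 2 were called in each direction (18.2% each), and 3 lay above and 5 below both wild types in both mutants. Hbb-y, an embryonic beta globin, rose from 18.8 and 16.2 CPM to 63.0 and 47.1 CPM (3.14-fold, adjusted p = 0.000214), and Ighm, the heavy chain of IgM, from 10.3 and 9.16 CPM to 31.0 and 27.8 CPM. Counts of Hbb-y are uncertain, since globin genes share sequence and reads with several alignments were split. The receptor Il21r fell 4.80-fold, and without wild-type replicate 2 no member of the list was called lower (adjusted p = 0.0107 for Il21r by edgeR). The sphingosine receptor S1pr1 was the 1 call, lower, among 3 endothelial genes (33.3%). It was not called without wild-type replicate 2 (adjusted p = 0.0573 by edgeR).

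Of 10 genes of surface epithelium and mesothelium, 3 were called higher (30%) and 0 lower. Among all genes tested 1.0% were called higher and 0.931% lower. The median log2 fold change of the list was 0.08, and -0.04 over the 9 members named from another list. In both mutants 3 of the 10 lay above and 2 below both wild types, and 5 overlapped. Above and below lay 4573 and 4089 of all 16333 genes tested. Esrp1, a splicing regulator of epithelia, rose from 6.95 and 3.36 CPM to 21.8 and 21.0 CPM (3.98-fold), Krt7, a keratin, 1.96-fold and Bnc1, a zinc-finger factor also made by germ cells, 1.89-fold. The mesothelial markers Msln and Upk3b stayed under 1 CPM in all 4 libraries. Only Esrp1 was called without wild-type replicate 2. In the signalling lists, the Wnt receptor Fzd5 fell 2.12-fold, from 80.1 and 101 CPM to 48.2 and 37.3 CPM (adjusted p = 0.0026), and the cadherin Celsr3 rose 2.02-fold. These were the calls among 8 Wnt genes, and Celsr3 lost its call without wild-type replicate 2 (adjusted p = 0.0586 by edgeR). Of 14 genes of the activin, inhibin and TGF-beta group the 2 inhibin subunits were the calls. Of members named from another list, 1 of these 2 was called and none of the Wnt genes.

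Most stress and repair genes tested were not called. In the direction of the calls the shares were 16.7% higher for DNA damage genes and 14.3% lower for stress and autophagy genes. Over all genes tested 1.0% were called higher and 0.931% lower. Of 12 genes of the DNA damage response, the kinases Atr and Prkdc were called higher, at 1.80-fold and 1.69-fold, and 0 lower. Cdkn1a, the target of p53 that arrests the cell cycle, overlapped between genotypes at 9.60 and 15.0 CPM against 12.9 and 9.76 CPM. Of 14 stress and autophagy genes 2 were called lower, Ddit4, an inhibitor of mTOR signalling, at 1.71-fold and Tp53inp2, an autophagy factor, at 1.54-fold. Without wild-type replicate 2 none of the 4 was called, at adjusted p of 0.0332 for Atr, 0.0193 for Prkdc, 0.0368 for Ddit4 and 0.0306 for Tp53inp2 by edgeR. Of 3 genes of nuclear RNA export Nxf7 was called, from 91.5 and 94.3 CPM to 57.4 and 44.6 CPM (1.82-fold lower, adjusted p = 0.00404). It was named from the newborn list alone. None of 7 genes of smooth muscle and 6 of retinoid metabolism passed the test by edgeR, with 1 smooth muscle gene and 2 retinoid genes at an unadjusted p below 0.05. DESeq2 called 0 smooth muscle genes and 2 retinoid genes lower.

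**Figure D4:**
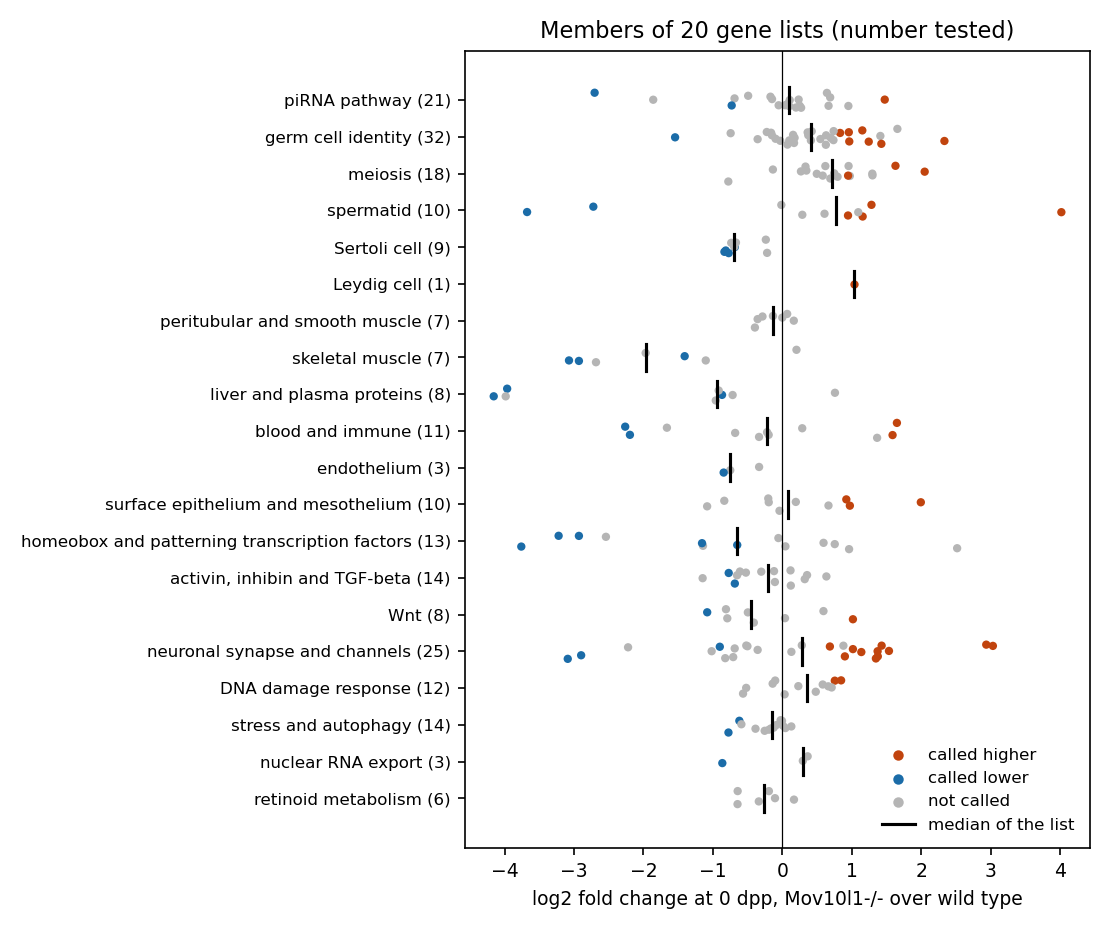
Log2 fold changes at 0 dpp of the tested members of 20 gene lists, with called members coloured and the median of each list as a bar. Medians lie at 0.42 for germ cell genes and 0.72 for meiosis genes and at -0.69 for Sertoli genes, whereas the piRNA pathway lies at 0.10.

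The libraries of 9 dpp hold other animals and no library of birth. Of the 15256 genes tested at both ages, 0.564% were called higher and 3.24% lower in Mov10l1-/- testes at 9 dpp. Of the 152 genes called higher at birth, 44 were called lower and 4 higher at 9 dpp, and their median log2 fold change at 9 dpp was -0.42 against -0.004 over all genes. Of the 135 genes called lower at birth, 12 were called lower and 5 higher, with a median of -0.32. Seen from 9 dpp, the 495 genes called lower there included 44 called higher (8.89%) and 12 called lower (2.42%) at birth, against 0.996% and 0.885% of all genes tested at both ages. A symbol was in hand for 35 of the 44, since many names come from a list of genes changed at 9 dpp.

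Genes of the germ-cell list were among the 44. Dazl, higher at birth, had 27.6 and 35.2 CPM in the wild-type replicates 1 and 2 of 9 dpp, and 9.46 and 10.8 CPM in the mutants (log2 fold change -1.64 ± 0.13 (SE), adjusted p = 0.000462 by edgeR). Elavl2 was at 13.9 and 16.1 CPM against 7.18 and 6.93 CPM. Tcl1a was under 1 CPM at this age, at 0.861 and 0.833 CPM against 0.139 and 0.100 CPM. For all 3 the order of the genotypes was opposite to that at birth. With all 5 libraries of 9 dpp, Elavl2 kept its call (adjusted p = 0.00796 by edgeR) and Dazl and Tcl1a did not (adjusted p = 0.039 and 0.0163). The kinesin Kif5c, singled out after its values were seen, did the reverse. Its levels were 24.3 and 32.4 CPM in the wild types and 6.06 and 5.65 CPM in the mutants at birth (log2 fold change -2.27 ± 0.17 (SE)), and 40.9 and 39.9 against 91.2 and 89.1 CPM at 9 dpp, where the call was lost with all 5 libraries (adjusted p = 0.208 by edgeR). The kinase Pak6, also singled out, was 4.42-fold lower at birth and at 1.58 and 3.18 against 6.36 and 6.60 CPM at 9 dpp (adjusted p = 0.0139 by edgeR).

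Both mutant libraries of 9 dpp carry the code of 1 animal, which leaves no measure of variation among mutant animals. A wild-type replicate 3 of 9 dpp shares the litter code of that animal, and for several genes it lay with the mutants. Kif5c was at 84.3 CPM in it, Fgfr3 at 1.91 CPM against 20.5 and 22.7 CPM in the other wild types and 2.77 and 2.76 CPM in the mutants, and Sycp2 at 3.06 CPM against 7.49 and 7.72 CPM and 3.62 and 3.39 CPM. Dazl was at 17.2 CPM in it, between the other wild types and the mutants. Replicate 3 was nearer to the mutants than to the other wild types in 26 of the 44 genes (59.1%) and in 52.6% of all genes tested at 9 dpp. With this library included, 4 of the 152 genes called higher at birth were called lower at 9 dpp and 1 higher, and with the mutant libraries summed none was called by edgeR in either direction. Of the genes higher at birth, 121 of 152 had a log2 fold change below 0 at 9 dpp (79.6%), as did 87 of the 135 genes lower at birth (64.4%) and 50.7% of all genes tested. With all 5 libraries these counts were 121 of 152 and 95 of 140, and with the mutant libraries summed 121 of 153 and 100 of 145.

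**Figure D5:**
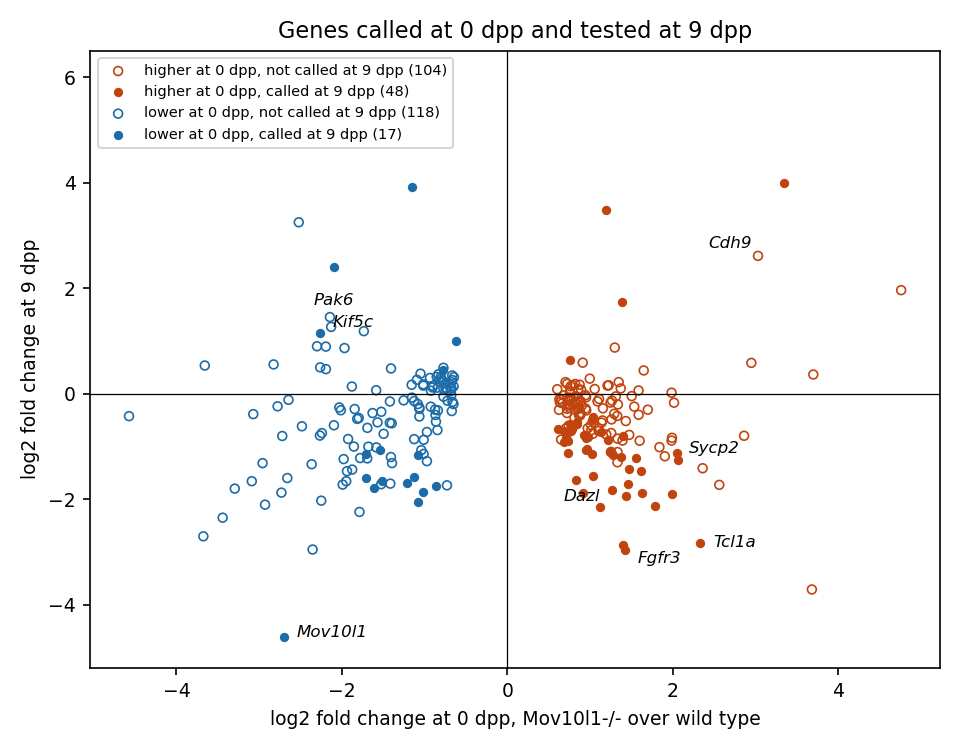
Log2 fold change at 0 dpp against that at 9 dpp, from separate libraries, for the 287 genes called at birth and tested at 9 dpp, filled where also called at 9 dpp. Of the 152 genes higher at birth 121 lie below 0 at 9 dpp, and of the 135 lower at birth 87 do, Mov10l1 is lower at both ages, and Kif5c and Pak6 change sides.

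A small number of genes moved the same way at both ages. Beside Mov10l1, the genes called lower at both were Nxf7, Uchl1, Arg2, Pkhd1, Crybg1, Chd5 and St14 and 4 without a name, and those called higher at both were Ptchd3, B3glct and 2 without a name. They were named after their calls were seen. Chd5, a chromatin remodeller, was at 10.0 and 12.5 CPM in the wild types at birth and at 5.44 and 5.10 CPM in the mutants. Its log2 fold change was -1.09 at birth and -2.07 at 9 dpp. With all 5 libraries of 9 dpp only Mov10l1, Crybg1 and Ptchd3 of these genes were still called at that age, and the adjusted p of Chd5 was 0.077 by edgeR.

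In adults most genes differed between the genotypes. The study describes adult mutant testes as atrophic, with germ cells left in few tubules. Adult levels thus compare whole testes of unlike cell content, and changes per cell were not tested. Of the 14795 genes tested at both ages, 38.7% were called higher and 35.0% lower in adults. Of the 149 genes called higher at birth, 32 were called higher and 78 lower, with a median log2 fold change of -1.10, against 0.24 over all genes. Of the 133 called lower at birth, 49 were called higher and 52 lower, with a median of -0.18. The adult wild types were 65 and 23 weeks old and the mutants 63 and 53 weeks. Inha, lower at birth, had an adult log2 fold change of 3.56, and Ybx2, higher at birth, of -10.45.

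A test of the difference between the genotype effects of 0 and 9 dpp called 730 of 16808 genes (4.34%), of which 521 were more negative at 9 dpp and 209 more positive. For the genes fixed by name, it called Ddx4, whose log2 fold change was 0.10 at birth and -1.71 at 9 dpp (adjusted p = 0.00132), and Dazl, at 0.83 and -1.64 (adjusted p = 0.000178). Piwil1 went from 0.23 to -1.95 and Ddx25 from 0.70 to -2.04, and both were called. Piwil4 went from -0.69 to -1.68 and was not called. With all 9 libraries of both ages the test called 246 genes.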

How the data were processed

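Total RNA of whole testes was depleted of ribosomal RNA (the labels also name polyA RNA) and sequenced with a stranded kit, as single-end reads of 75 nucleotides at 0 and 9 dpp. The authors aligned reads to the MesAur1.0 genome with STAR 2.7.3a and assigned them to Ensembl 99 genes by exon with featureCounts 2.0.0, splitting reads with up to 20 alignments or several genes into fractions. The deposited values are these estimated counts per gene and library, without normalization, so genes with near-identical copies are uncertain.

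Estimated counts were rounded to whole numbers. Genotypes were compared within an age with edgeR 4.0.16 in R 4.3.3 (TMM normalization, the default filter on low counts, quasi-likelihood test), and genes with a Benjamini-Hochberg adjusted p below 0.01 were called. The study's tool, DESeq2 1.42.0, was an alternative. At 9 dpp the libraries the study used entered, with a fit of all 5 as an alternative. Other alternatives are given in the closing section. Where a library was left out, the lone library of its genotype is assumed to vary like the others. One count is 0.0487 CPM in wild-type replicate 2 and 0.0204 to 0.0226 CPM in the other libraries. The test was checked on simulated data.

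The table holds 22285 genes. Symbols came from the gene columns of the study's tables, from RefSeq through the gene number in a description, or from a unique description, and cover 1051 of the 16333 genes tested. Positions are those of the tables. No gene sequence was in hand. The text names Mov10l1, the 12 genes with the largest change in each direction among called genes with a name, at least 1 CPM in one genotype and no overlap, called members of the 20 lists, and Ddx4, Ddx25, Dazl, Sohlh1, Piwil1, Piwil2, Piwil4 and Nxf7. List members named without a call (Tdrd1, Tdrd5, Tdrd7, Rnf17, Sycp1, Hormad1, Brdt, Clu, Kitl, Cdkn1a, Msln and Upk3b) and Kif5c, Pak6, Abca7 and Chd5 were chosen after their values were seen. Some genes that meet the rule are not reported here. Genes and lists were chosen with earlier results of these data known. The authors' fold changes and p values were not used.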

Additional observations from a re-analysis of the deposited data

Results flagged for a closer look

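The genotype effect differed between 0 and 9 dpp for 18 of the genes named by rule or singled out, by the interaction of genotype and age (edgeR, adjusted p below 0.01). Values are the log2 fold change at 9 dpp minus that at birth. Since the genes with the largest changes were chosen on the birth libraries, which also enter this test, their differences are not independent of the choice. Among the genes higher at birth the difference was -3.31 for Cxcl13, -3.63 for Gm15262, -4.26 for Abca16, -3.75 for Gpr61, -5.14 for Tcl1a, -3.30 for C1ql1, -3.15 for Sycp2 and -2.15 for Fam26f. Among the genes fixed by name it was -1.88 for Mov10l1, -1.78 for Ddx4, -2.71 for Ddx25, -2.45 for Dazl, -1.26 for Sohlh1, -2.16 for Piwil1 and -1.25 for Piwil2. Among those singled out it was 3.44 for Kif5c, 3.62 for Pak6 and -1.98 for Abca7, a lipid transporter that was at 17.5 and 14.3 CPM in the wild types and 53.5 and 50.4 CPM in the mutants at birth. With wild-type replicate 3 of 9 dpp added, the adjusted p was 0.0282 for Cxcl13, 0.0391 for Gm15262, 0.0565 for C1ql1, 0.0472 for Mov10l1, 0.0449 for Sohlh1 and 0.0104 for Piwil2, and stayed below 0.01 for the other 12. The mutant libraries of 9 dpp are from 1 animal, and the part of litter in these differences was not tested. Groups of 2 libraries allow no test for an outlying sample.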

How the results depend on the processing

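No gene called at birth reversed its direction under any alternative run. DESeq2 called 358 genes higher and 338 lower, no filter on low counts 724 and 597, and a joint fit with 9 dpp 238 and 280, and these held 162 and 151, 164 and 152, and 155 and 135 of the genes called. The replicate numbers do not pair the libraries (correlation of deviations 0.06 over 2 pairs), and the fit with the replicate number as a block called 727 higher and 667 lower, 124 list members and all 24 of the largest changes. With a library left out, 79 to 416 genes were called higher and 81 to 423 lower. List members called were 63, and 106 with DESeq2, 123 without the filter and 32 to 95 with a library left out. Of the 24 largest named changes 10 were called with at least 10 counts in every library, since the others were not tested there, and 17 to 24 with a library left out. Of the uncalled genes, the log2 fold change of Ddx4 ranged from -0.13 to 0.32 and that of Sohlh1 from -0.095 to 0.38 with a library left out, below 0 for both without Mov10l1-/- replicate 1 and for Ddx4 also without wild-type replicate 2 (-0.08). The interaction called 246 genes with all 9 libraries and 1417 without a filter. Genes lower at 9 dpp were 4 of those higher and 2 of those lower at birth with all 5 libraries of 9 dpp, and 0 and 0 with the mutant libraries summed. The causes were not tested. Depth limits the genes under 1 CPM, above all in wild-type replicate 2.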

Other observations

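Abca16, Dnah3 and Acsm3 lie within 767.8 kb of each other on MesAur1.0 scaffold KB708127.1. Abca16 was higher, and Dnah3 and Acsm3 were lower in Mov10l1-/- testes at birth, with 322.2 kb between the first and the second and 89.1 kb between the second and the third. The mutants share 1 litter code, which no wild type of birth carries. Whether such neighbours go with litter or genotype cannot be told apart at this age and was not tested.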
